A study of Homo sapiens with 8 samples.

Results

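The genes described here are 9 stress genes that restrain growth or answer to growth-restraining signals: DDIT4, the sestrins SESN1, SESN2 and SESN3, TRIB3, TSC22D3, FKBP5, KLHL24 and CREBRF. They were taken by symbol from the deposited tables, and all 9 were found among the 24077 genes that both tables hold. Some of them had been seen to move in these libraries before they were picked, so their JIB-04 values below describe them and test nothing. RNA-seq was done on AML-OCI3, an established line of human acute myeloid leukaemia cells, in 4 groups of 2 libraries: 40 nM JIB-04 for 24 h, DMSO for 24 h, 40 nM JIB-04 for 48 h and DMSO for 48 h. JIB-04 is a small-molecule inhibitor of Jumonji histone lysine demethylases, DMSO is its vehicle, and the study concerned JIB-04, venetoclax sensitivity and ferroptosis. No library was labelled with venetoclax, all 8 come from 1 cell line grown in serum, and no label says whether replicates were separate cultures.

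mTORC1 is the kinase complex that couples amino acids and growth factors to protein synthesis. DDIT4 and the sestrins hold it back from different sides: DDIT4 acts through the TSC complex, which switches off the activator RHEB, while SESN2 senses leucine and releases the inhibitory GATOR1 complex from its antagonist GATOR2. Transcription of these genes is driven by stress: ATF4 and CHOP, made when the integrated stress response is on, raise SESN2, DDIT4 and TRIB3, FOXO factors raise SESN3 when AKT is silent, p53 raises SESN1 and SESN2, and the glucocorticoid receptor raises TSC22D3 and FKBP5.

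Promoter sequences of RefSeq, from 250 bases before to 50 bases after a gene start on build GRCh38.p14, were found for 9 of 9 genes, in 17 windows. The 3 shown belong to the genes that passed with JIB-04 at 48 h. TSC22D3 has 4 windows, and the one printed was picked because it alone held a motif match; the other 3 held none. Each is written 5′ to 3′ on the strand of its gene, and capitals mark a motif match. In CREBRF the capitals are CACGTG, the E-box that basic helix-loop-helix factors such as MYC and TFEB bind, and in TSC22D3 they are the reverse complement of GTAAACA, the FOXO core. KLHL24 held none of the motifs searched.
CREBRF promoter, chr5:173056102-173056401, plus strand: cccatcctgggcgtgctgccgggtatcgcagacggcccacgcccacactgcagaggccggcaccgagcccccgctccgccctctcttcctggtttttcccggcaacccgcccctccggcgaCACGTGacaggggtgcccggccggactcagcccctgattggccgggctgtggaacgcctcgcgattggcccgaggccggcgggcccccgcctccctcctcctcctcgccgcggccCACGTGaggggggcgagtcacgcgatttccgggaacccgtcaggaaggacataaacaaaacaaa
KLHL24 promoter, chr3:183635373-183635672, plus strand: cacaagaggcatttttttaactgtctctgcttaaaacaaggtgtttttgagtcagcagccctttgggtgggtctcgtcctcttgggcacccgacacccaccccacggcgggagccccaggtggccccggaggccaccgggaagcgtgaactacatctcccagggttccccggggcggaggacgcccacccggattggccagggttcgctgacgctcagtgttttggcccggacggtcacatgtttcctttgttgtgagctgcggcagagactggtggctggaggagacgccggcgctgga
TSC22D3 internal promoter, chrX:107717013-107717312, minus strand: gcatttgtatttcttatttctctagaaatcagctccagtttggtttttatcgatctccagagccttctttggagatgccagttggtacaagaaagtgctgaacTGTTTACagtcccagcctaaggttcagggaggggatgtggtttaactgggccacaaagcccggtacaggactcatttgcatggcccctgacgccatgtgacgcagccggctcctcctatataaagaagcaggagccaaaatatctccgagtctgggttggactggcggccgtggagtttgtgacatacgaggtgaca

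CREBRF had the E-box letters at 2 places, beginning 129 and 14 bases before the start. Over both strands, CACGTG was in 2 of the 17 windows, CREBRF and 1 window of FKBP5, and in 7.26% of all 35116 promoter windows of the table. GTAAACA was in 1 of the 17 windows, the internal TSC22D3 start shown, beginning 147 bases before it, and in 3.42% of all windows. AGAACA, a core that the glucocorticoid receptor binds, was in 1 of the 17 windows, at the start of FKBP5, against 14.8% of all windows, and AGAACA followed 3 bases on by TGTTCT was in 0 of the 17 and 0.00285% of all. TGATGNAA, the core at which C/EBP and ATF4 bind together, was in 0 of the 17 windows and in 3.62% of all. The 17 windows are not 17 separate sequences. Those of TRIB3 begin at bases 381045, 381056 and 381093 of chromosome 20 and are nearly the same, and 2 windows of TSC22D3 overlap in part. The letters describe these windows and nothing outside them.

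Library totals lay between 18783093 and 22193377 counts, and 15248 genes passed the filter on low counts, the 9 among them. All 12 myeloid markers checked (CD33, FLT3 and CEBPA among them) were detected in the cell line, where they summed to between 851 and 1003 CPM. Of the markers of other cell types that both tables hold, 2 erythroid markers summed to at most 9.62 CPM in any library, 2 T or NK cell markers to 8.22, 3 fibroblast markers to 2.22, 4 B or plasma cell markers to 1.25 and 1 epithelial marker to 0.206 CPM. Single markers of these lists overlapped in level. The myeloid markers MPO and ITGAM reached at most 3.26 and 3.59 CPM in any library. The T or NK cell marker NCAM1 ran from 6.48 to 8.17 CPM and the erythroid marker EPOR from 5.95 to 9.62 CPM. Each other myeloid marker had a highest value of 13.1 CPM or more. The sums cover different numbers of markers and do not rank the lists. In 3 of the 4 groups replicate 1 and replicate 2 differed by a trend with gene GC content. Spearman's rho of that difference against GC content, across 5749 genes (genes are no independent replicates), was 0.923 in JIB-04 at 24 h, -0.841 in DMSO at 24 h, 0.894 in JIB-04 at 48 h and 0.110 in DMSO at 48 h. The 9 genes fall into a high-GC and a low-GC set. GC content was 61.7% in TRIB3, 61.2% in DDIT4, 59.5% in SESN2 and 55.0% in TSC22D3, against 39.7% to 43.2% in CREBRF, SESN3, SESN1, FKBP5 and KLHL24. Results are therefore given from the counts as deposited and, where it matters, with the GC trend of each library removed.

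**Figure D1:**
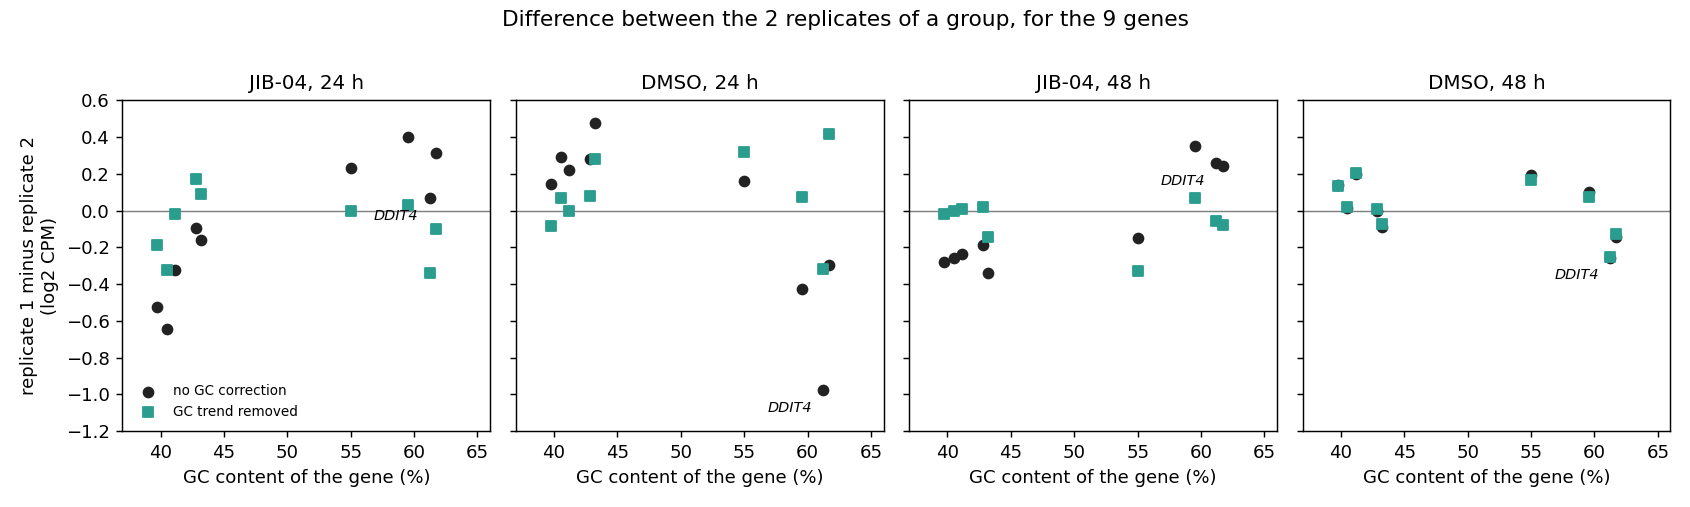
Difference between replicate 1 and replicate 2 in log2 CPM (vertical axis) against gene GC content in percent (horizontal axis) for the 9 genes, 1 panel per group; circles are uncorrected values and squares have the GC trend of the library removed. Uncorrected, DDIT4 in DMSO at 24 h differed most, by -0.98; it differed by -0.32 with the trend removed, where TRIB3 in the same group differed most, by 0.41.

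Levels were compared between genes in TPM, which is per transcript length. DDIT4 had the highest mean over the 8 libraries, 35.8 TPM, followed by TRIB3 with 26.2, SESN2 with 20.1, SESN1 with 16.3, FKBP5 with 15.2 and TSC22D3 with 13.4 TPM. KLHL24, CREBRF and SESN3 lay lowest, at 8.85, 8.75 and 7.60 TPM. Each pair of neighbours in this order overlapped in its range over libraries: SESN1 ran between 11.9 and 25.2 TPM, and SESN3 between 5.29 and 10.4 TPM. The place of DDIT4 was not fixed. It had rank 5 of the 9 in JIB-04 at 24 h, with 14.3 and 12.9 TPM, and rank 1 in the other groups, with 25.5 and 51.9 TPM in DMSO at 24 h, 37.2 and 29.8 TPM in JIB-04 at 48 h and 52.1 and 62.5 TPM in DMSO at 48 h. KLHL24 and CREBRF, the lowest 2 in DMSO at 48 h, had ranks 6 and 5 in JIB-04 at 48 h.

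**Figure D2:**
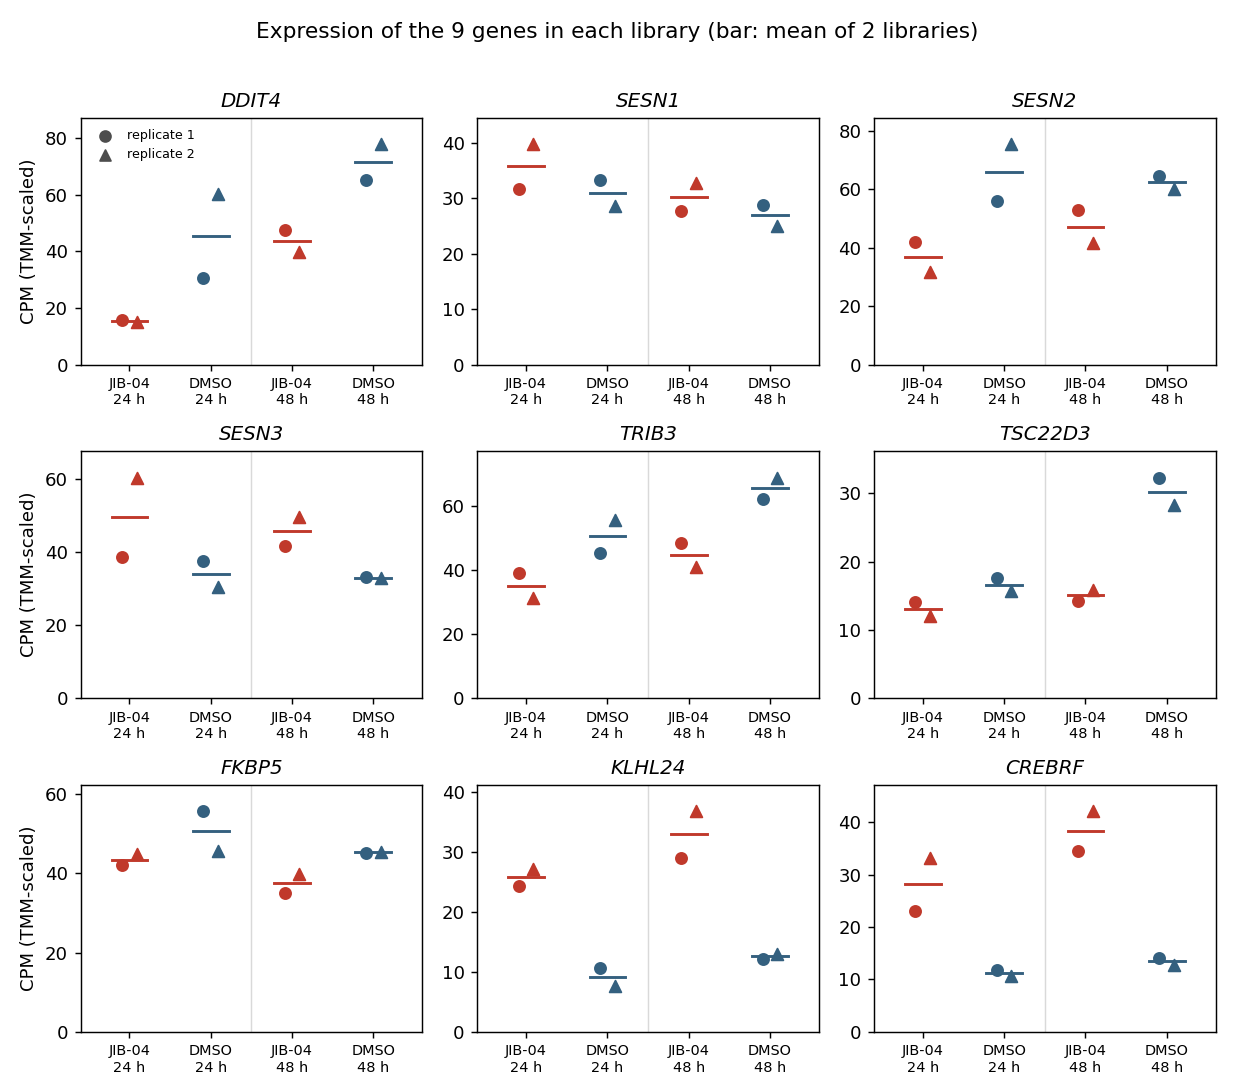
CPM (TMM-scaled, vertical axis from 0) of each of the 9 genes in the 8 libraries; circles are replicate 1, triangles replicate 2, bars the mean of 2, red JIB-04 and blue DMSO. KLHL24 and CREBRF stood higher with JIB-04 than with DMSO at both times, DDIT4, SESN2 and TRIB3 stood lower, and TSC22D3 stood apart in DMSO at 48 h.

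With JIB-04, the set did not move one way. KLHL24 and CREBRF were 2.85-fold and 2.51-fold higher than in DMSO at 24 h and 2.61-fold and 2.85-fold higher at 48 h, and SESN3 was 1.45-fold and 1.38-fold higher. The mTORC1 restrainers DDIT4 and SESN2 and the pseudokinase gene TRIB3 were lower at both times, DDIT4 by 2.92-fold at 24 h and 1.64-fold at 48 h. TSC22D3 was 1.28-fold lower at 24 h and 2.0-fold lower at 48 h. These figures are from edgeR over all 8 libraries, and the directions were part of what the genes were chosen on. In bulk RNA, fewer cells expressing a gene and less RNA per cell cannot be told apart.

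DDIT4 (also REDD1), at chr10:72273920-72276036 on build hg38, encodes a short-lived inhibitor of mTORC1 that acts through the TSC complex. It had 15.9 and 15.2 CPM in JIB-04 at 24 h, against 30.6 and 60.2 CPM in DMSO at 24 h. At 48 h it had 47.6 and 39.8 CPM in JIB-04, against 65.2 and 77.8 CPM in DMSO. Both JIB-04 libraries lay below both DMSO libraries at each time, and the DMSO libraries of 24 h lay far apart. The log2 fold change was -1.54 ± 0.29 (SE) at 24 h and -0.71 ± 0.28 at 48 h, and with the GC trend removed it was -1.51 ± 0.14 and -0.94 ± 0.12. The 24 h value was -1.95 without replicate 1 of DMSO at 24 h and -0.97 without replicate 2, the widest range of the 9 genes when each library was left out in turn. An antisense gene, DDIT4-AS1, lies on the opposite strand. It had 6.95 and 4.31 CPM in JIB-04 at 24 h against 21.7 and 12.7 CPM in DMSO, and 14.7 and 11.3 CPM in JIB-04 at 48 h against 39.2 and 30.6 CPM in DMSO. The library kit marks strand, but whether the counting did so was not stated, and without it reads of the pair cannot be told apart. In DMSO at 24 h and at 48 h, replicate 2 was the higher library for DDIT4 and the lower one for DDIT4-AS1. With JIB-04, replicate 1 was the higher library for both genes at each time. The log2 fold change of DDIT4-AS1 was -1.60 ± 0.32 at 24 h and -1.42 ± 0.30 at 48 h. Whether the pair shares reads was not tested.

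The sestrins are 3 related stress proteins that act on GATOR2, and their genes did not move together. SESN2, the leucine sensor (chr1:28259527-28282491), had 42.1 and 31.9 CPM in JIB-04 at 24 h, against 56.1 and 75.5 CPM in DMSO, and 53.0 and 41.5 CPM in JIB-04 at 48 h, against 64.6 and 60.3 CPM in DMSO. It was lower in both JIB-04 libraries at each time, with log2 fold changes of -0.83 ± 0.20 at 24 h and -0.40 ± 0.20 at 48 h. With the GC trend removed the values were -0.83 ± 0.06 and -0.57 ± 0.06.

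SESN3 (chr11:95165513-95232541), the sestrin that FOXO factors raise, had 38.6 and 60.4 CPM in JIB-04 at 24 h, against 37.4 and 30.5 CPM in DMSO. At 48 h it had 41.6 and 49.7 CPM in JIB-04, against 33.2 and 32.8 CPM in DMSO. In CPM both JIB-04 libraries lay above both DMSO libraries at each time, by a margin of about 1 CPM at 24 h. In TPM, which is per transcript length, the libraries of 24 h overlapped, with 6.92 and 10.4 TPM in JIB-04 against 8.12 and 6.46 TPM in DMSO. The log2 fold change was 0.54 ± 0.22 at 24 h and 0.47 ± 0.22 at 48 h, and without the GC trend 0.39 ± 0.09 and 0.49 ± 0.10. SESN1 (chr6:108986437-109094819), the sestrin first known as a p53 target, had 31.7 and 39.7 CPM in JIB-04 at 24 h, against 33.3 and 28.6 CPM in DMSO, and 27.7 and 32.7 CPM in JIB-04 at 48 h, against 28.8 and 25.1 CPM in DMSO. On uncorrected CPM SESN1 was the only gene of the 9 whose JIB-04 and DMSO libraries overlapped at both times. Its log2 fold changes were 0.20 ± 0.17 and 0.17 ± 0.17, and 0.07 ± 0.08 and 0.19 ± 0.08 with the GC trend removed. With the trend removed, both JIB-04 libraries lay above both DMSO libraries at each time. At 24 h these were 5.08 and 5.10 log2 CPM in JIB-04 against 5.02 and 5.02 in DMSO.

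TRIB3 (chr20:362835-397559) encodes a pseudokinase that binds AKT and is a late target of ATF4 and CHOP. It had 38.9 and 31.3 CPM in JIB-04 at 24 h, against 45.3 and 55.6 CPM in DMSO, and 48.3 and 40.8 CPM in JIB-04 at 48 h, against 62.1 and 68.7 CPM in DMSO. The JIB-04 libraries were the lower ones at each time, with log2 fold changes of -0.52 ± 0.17 at 24 h and -0.55 ± 0.17 at 48 h. Removing the GC trend left the 24 h value near that, -0.56 ± 0.12, and gave -0.80 ± 0.11 at 48 h.

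TSC22D3, or GILZ (chrX:107713221-107777342), encodes a leucine-zipper protein that carries part of the anti-inflammatory action of glucocorticoids and is also a FOXO target. It had 14 and 12 CPM in JIB-04 at 24 h, against 17.5 and 15.7 CPM in DMSO, and 14.3 and 15.9 CPM in JIB-04 at 48 h, against 32.3 and 28.2 CPM in DMSO. The 2 DMSO libraries of 48 h stood apart from the other 6, which lay between 12 and 17.5 CPM. The log2 fold change of JIB-04 over DMSO was -0.35 ± 0.16 at 24 h and -1.0 ± 0.16 at 48 h, and -0.31 ± 0.14 and -1.02 ± 0.13 with the GC trend removed. FKBP5 (chr6:35573585-35728583) encodes a co-chaperone that lowers the hormone affinity of the glucocorticoid receptor and is itself raised by it. It had 42 and 44.8 CPM in JIB-04 at 24 h, against 55.6 and 45.7 CPM in DMSO, and 35.1 and 39.9 CPM in JIB-04 at 48 h, against 45.2 and 45.3 CPM in DMSO. JIB-04 libraries were lower at each time, by less than 1 CPM between the nearest libraries at 24 h, and the log2 fold changes were -0.22 ± 0.14 and -0.27 ± 0.14. With the GC trend removed they were -0.31 ± 0.07 and -0.25 ± 0.07.

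KLHL24 (chr3:183635568-183684477) encodes a kelch-repeat adaptor that hands substrates to the CUL3 ubiquitin ligase. It had 24.4 and 27.2 CPM in JIB-04 at 24 h, against 10.5 and 7.57 CPM in DMSO, and 29 and 36.7 CPM in JIB-04 at 48 h, against 12.2 and 13 CPM in DMSO. All 4 JIB-04 libraries lay above all 4 DMSO libraries. The log2 fold change was 1.51 ± 0.20 at 24 h and 1.39 ± 0.20 at 48 h, and 1.43 ± 0.11 and 1.40 ± 0.10 with the GC trend removed. CREBRF (chr5:173056352-173139284) encodes a regulator that promotes the breakdown of the transcription factor CREB3, and its Drosophila counterpart REPTOR acts when TORC1 is inhibited. It had 23.0 and 33.2 CPM in JIB-04 at 24 h, against 11.8 and 10.7 CPM in DMSO, and 34.6 and 42.1 CPM in JIB-04 at 48 h, against 14.1 and 12.8 CPM in DMSO. Here too the 4 JIB-04 libraries were above the 4 DMSO libraries, with log2 fold changes of 1.32 ± 0.20 at 24 h and 1.51 ± 0.20 at 48 h. With the GC trend removed they were 1.16 ± 0.09 and 1.54 ± 0.09.

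**Figure D3:**
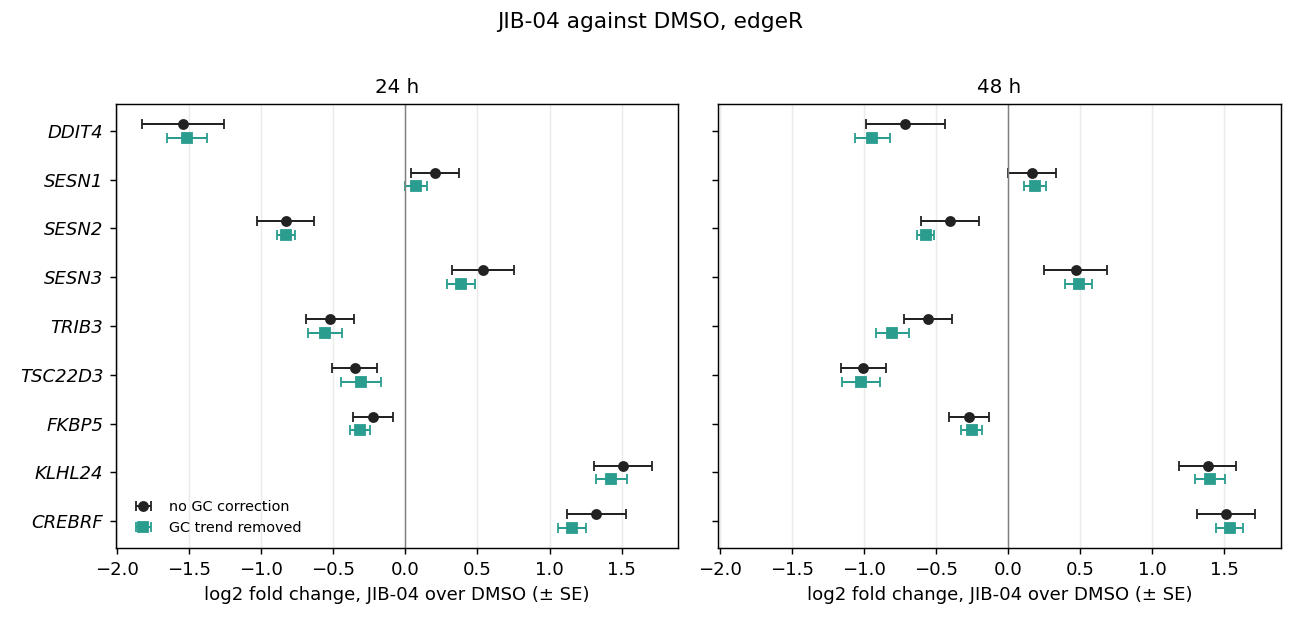
Log2 fold change of JIB-04 over DMSO (horizontal axis, ± SE) for the 9 genes at 24 h and 48 h; circles are from edgeR on the counts as deposited and squares from edgeR with the GC trend of each library removed. KLHL24 and CREBRF lie at 1.16 or above and SESN2, TRIB3 and DDIT4 at -0.40 or below in both panels and both fits.

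By edgeR's quasi-likelihood test, adjusted over the 15248 genes, 0 of the 9 genes passed at an adjusted p under 0.05 at 24 h, where 0% of all tested genes passed. At an unadjusted p under 0.05 there were 6, against 10.8% of all genes. DESeq2 passed 4, where 0.647% of all genes passed, and limma-voom passed 0 of 0%. At 48 h 3 of the 9 passed, KLHL24 and CREBRF higher and TSC22D3 lower, where 0.315% of all genes passed as higher and 0.0721% as lower, 0.387% in all. DESeq2 and limma-voom passed the same 3 genes, against 1.07% and 0.341% of all genes. At an unadjusted p under 0.05 there were 5, against 9.69%, and in a fit of only the 4 libraries of 48 h 5 passed, with DDIT4 and TRIB3 added, against 3.39%. In the authors' deposited table, KLHL24 and CREBRF were higher and DDIT4 lower at an adjusted p under 0.05 at 24 h, where 0.0554% and 0.0356% of the genes with a value were called in those directions. At 48 h the authors' deposited table added TRIB3 and TSC22D3 to the lower genes, with background shares of 2.46% higher and 0.971% lower. On uncorrected CPM, libraries of JIB-04 and DMSO did not overlap for 8 of the 9 genes at each time, 3 higher and 5 lower. Over all tested genes 18.1% were higher and 15.6% lower without overlap at 24 h, and 25.8% and 23.7% at 48 h. Since the genes were picked with these contrasts known, nothing is read from those counts.

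The calls at 48 h rest on 2 libraries a group. Leaving out each library in turn, the 48 h log2 fold change was 1.21 to 1.52 for KLHL24 and 1.36 to 1.62 for CREBRF. For TSC22D3 it was -1.10 to -0.91. Such fits leave 1 library in a group and cannot judge a call, so calls in them are not given. With the GC trend removed, 7 of the 9 passed at 24 h, all but SESN1 and TSC22D3, and 8 at 48 h, all but SESN1. In those fits 13.5% and 10.6% of all genes passed. Signs of the JIB-04 log2 fold changes were the same for all 9 genes in each of the 17 alternatives at 24 h and the 16 at 48 h. The alternatives refit the same libraries, and the directions were part of the choice of the genes, so nothing is read from that.

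The JIB-04 effect at 48 h minus that at 24 h, on the log2 scale, was 0.83 ± 0.39 for DDIT4 and -0.65 ± 0.22 for TSC22D3. For the other 7 genes it lay between -0.12 and 0.43. Of the 9, 0 passed in edgeR, with 1 at an unadjusted p under 0.05 (TSC22D3), and 0 in DESeq2, in limma-voom and with the GC trend removed. Over all genes edgeR passed 0% (5.23% unadjusted), DESeq2 0.0787%, limma-voom 0.00656% and edgeR with the GC trend removed 2.02%. The DDIT4 value was 1.23 without replicate 1 of DMSO at 24 h and 0.26 without replicate 2. DDIT4 and TSC22D3 had the 2 largest differences in size, in opposite directions.

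Whether time in the DMSO vehicle alone bore on the choice of the genes is not known, so its values too are given as a description. Its libraries are also the controls of the JIB-04 comparisons. Of the 9 genes, 0 passed in edgeR, where 0.426% of all tested genes did. At an unadjusted p under 0.05 there were 3 of the 9, against 12.2% of all genes, limma-voom passed 0, against 0.374%, and DESeq2 passed 1, TSC22D3, against 1.68%. TSC22D3 had 32.3 and 28.2 CPM in DMSO at 48 h, against 17.5 and 15.7 CPM at 24 h. This gave a log2 fold change of 0.87 ± 0.15, with both libraries of 48 h above both of 24 h, and the value lay between 0.77 and 0.96 over the 16 alternatives.

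In the same contrast DDIT4 had 0.65 ± 0.28 and KLHL24 0.48 ± 0.20. The DDIT4 value was 0.25 without replicate 1 of DMSO at 24 h and 1.23 without replicate 2. TRIB3 had 0.38 ± 0.16 and CREBRF 0.26 ± 0.20, each with both libraries of 48 h above both of 24 h. On uncorrected CPM FKBP5 was the one gene of the 9 with both 48 h libraries below both of 24 h, at -0.16 ± 0.14. The 3 sestrins overlapped there, between -0.20 and -0.04. Over all tested genes 25.9% were higher and 18.7% lower at 48 h without overlap, also on uncorrected CPM. With the GC trend removed, SESN1 and SESN3 too had both 48 h libraries below both of 24 h. With the GC trend removed, 5 of the 9 passed in DMSO, namely DDIT4, TRIB3, TSC22D3 and KLHL24 higher and SESN1 lower, where 16.5% of all genes passed.

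DDIT4 was 2.80-fold higher at 48 h than at 24 h with JIB-04, a log2 fold change of 1.49 ± 0.29, while TSC22D3 had 0.21 ± 0.16. CREBRF had 0.45 ± 0.20, KLHL24 0.35 ± 0.19, SESN2 0.35 ± 0.20 and TRIB3 0.34 ± 0.17. SESN1, SESN3 and FKBP5 lay between -0.24 and -0.11. Of the 9 genes, 0 passed in edgeR, where 0.203% of all genes did, with 2 at an unadjusted p under 0.05 (DDIT4 and CREBRF, against 8.57% of all genes). DESeq2 passed 1, DDIT4, against 0.662% of all genes, and limma-voom 0, against 0.21%. The fit of only the 4 JIB-04 libraries also passed DDIT4, against 0.267%, and with the GC trend removed 4 passed (DDIT4, SESN2, KLHL24 and CREBRF), against 8.5%. On uncorrected CPM 16.6% of all genes were higher and 16% lower at 48 h without overlap, as were 5 and 1 of the 9. The change of the JIB-04 effect equals the time value in JIB-04 cultures minus that in DMSO cultures. Its sign therefore already says that DDIT4 had the larger time value in JIB-04 cultures and TSC22D3 in DMSO cultures.

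**Figure D4:**
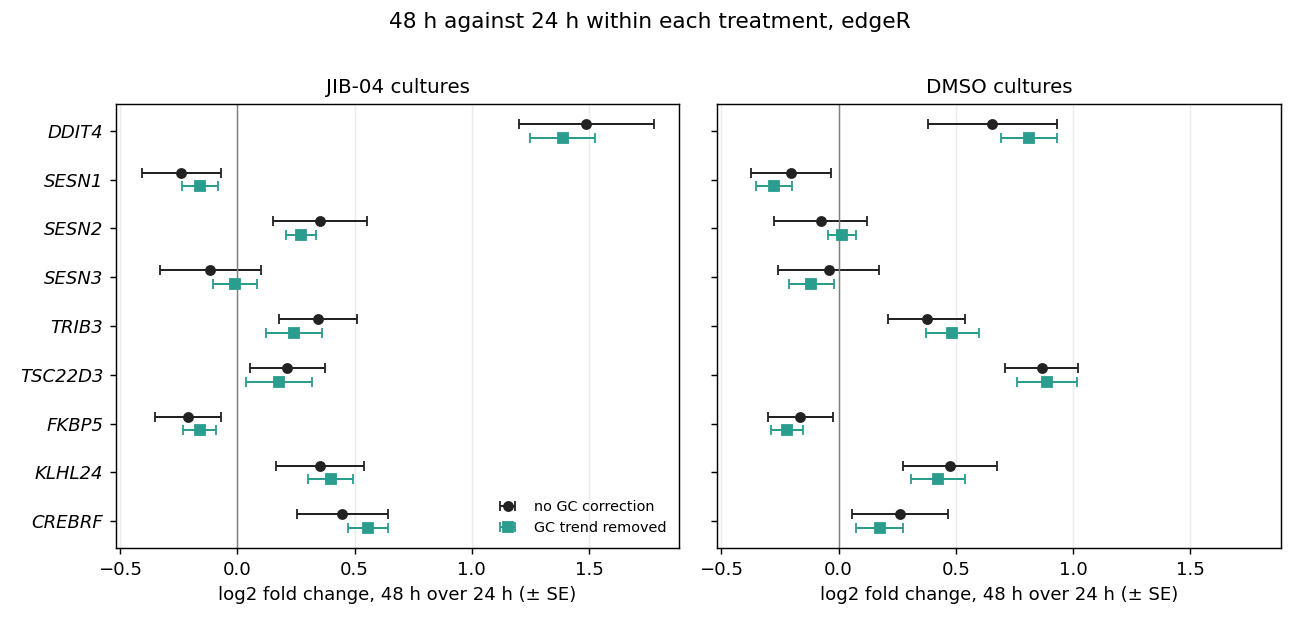
Log2 fold change of 48 h over 24 h (horizontal axis, ± SE) for the 9 genes within JIB-04 cultures (left) and DMSO cultures (right); circles are from edgeR on the counts as deposited and squares with the GC trend removed. DDIT4 lies at 1.49 in JIB-04 and 0.65 in DMSO, and TSC22D3 at 0.21 in JIB-04 and 0.87 in DMSO.

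The ratio of the deposited count to the deposited TPM gives the mean transcript length that the authors' quantification implied for a gene in a library, a readout that was added after the files had been seen. SESN2, with 1 annotated transcript, gave 3475 to 3477 bases in every library, and FKBP5, TRIB3, TSC22D3 and DDIT4 varied by 1.01-fold to 1.06-fold. CREBRF varied most, by 1.43-fold: 4161 and 3810 bases in JIB-04 at 24 h against 3007 and 2911 in DMSO, and 3063 and 3227 in JIB-04 at 48 h against 3821 and 3162 in DMSO. SESN3 varied by 1.37-fold, KLHL24 by 1.31-fold and SESN1 by 1.30-fold. The genes whose implied length varied are those with 6 or more annotated transcripts and low GC content; TSC22D3, with 17 transcripts, did not vary in this way. In limma 0 of the 9 genes passed in any of the 5 contrasts, over 10442 genes of which 0% passed in 4 contrasts and 0.00958% in JIB-04 at 48 h against 24 h. At an unadjusted p under 0.05, 651 to 1149 of the 10442 genes were found per contrast. On the TPM scale CREBRF at 24 h had 7.69 and 12.2 TPM in JIB-04 against 5.25 and 5.01 TPM in DMSO. SESN3, with 7749 and 8082 bases in JIB-04 at 24 h against 6176 and 6475 in DMSO, overlapped in TPM at 24 h. It had 6.92 and 10.4 TPM in JIB-04 against 8.12 and 6.46 TPM in DMSO.

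Genes with the most similar profile to each of the 9, by Pearson's correlation of log2 CPM over the 8 libraries among genes of mean log2 CPM of at least 3, were read as a description only, since all share the libraries and their GC trends. The closest to KLHL24 was PATL1, an mRNA decapping factor, at 0.992, and ZNF230, a zinc finger gene, was the closest to CREBRF at 0.984 and second for KLHL24 at 0.981. PATL1 had 101 and 108 CPM in JIB-04 at 24 h, against 85.0 and 73.6 CPM in DMSO, and 107 and 119 CPM in JIB-04 at 48 h, against 84.1 and 87.3 CPM in DMSO. For DDIT4 the first 2 were ZCCHC3 at 0.974 and SLC6A9, a glycine transporter gene, at 0.971. For TSC22D3 they were B4GALT1, a galactosyltransferase gene, at 0.989, and SECISBP2, a selenoprotein synthesis factor, at 0.984. SESN2 was closest to LINC00205 and FRAT1, SESN3 to PPFIBP1 and GPR89A, SESN1 to PDHX and RAD1, TRIB3 to GRB10 and C1RL, and FKBP5 to TTC5 and PRR11, at 0.976 to 0.993. GC content was 40.9% to 45.9% in the neighbours of the 5 low-GC genes and 51.6% to 60.7% in those of TRIB3, SESN2 and DDIT4, while B4GALT1 and SECISBP2, the neighbours of TSC22D3, had 53.8% and 44.3%.

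The other genes of the pathways that the 9 belong to were taken as 7 lists by role, 150 distinct genes of which 145 were tested. With JIB-04 at 24 h, 0 of the 145 passed in edgeR, against 0% of all tested genes, and 32 at an unadjusted p under 0.05, against 10.8%. DESeq2 passed 6, against 0.647% of all genes, and limma-voom 0 of 0%. At 48 h 4 rose, against 0.315% of all genes, and 0 fell, against 0.0721%: DDIT3 and PPP1R15A of the ATF4 and CHOP branch, and RGS2 and CD163 of the glucocorticoid receptor list. Both lists were written with earlier results of these data known, so their members are not independent support. With the GC trend removed, 29 of the 145 rose and 10 fell at 48 h, where 10.6% of all genes passed.

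Among the 13 genes of the mTORC1 core and its outputs, 0 passed with JIB-04 at 48 h, and the list median was 0.06 on the log2 scale, beside 0.01 over all tested genes. MTOR itself had a log2 fold change of -0.07 ± 0.11, RHEB, its activator, -0.05 ± 0.17, and EIF4EBP1, the translation repressor that mTORC1 phosphorylates, -0.17 ± 0.24. Of the 28 genes of GATOR and amino acid sensing, 0 passed, with a median of 0.07. The largest value there was 2.10 ± 0.49 for CASTOR1, the arginine sensor (edgeR adjusted p = 0.187), from 3.15 and 2.61 CPM in JIB-04 at 48 h against 0.411 and 0.908 CPM in DMSO. FNIP1, a partner of folliculin, had 1.08 ± 0.18 at 24 h (edgeR adjusted p = 0.123) and 0.73 ± 0.18 at 48 h (adjusted p = 0.211). The 25 genes of the TSC, PI3K, AKT and AMPK list also gave 0, with a median of 0.06 and TSC2 at 0.23 ± 0.23. At 24 h the medians of these 3 lists were -0.07, 0.08 and 0.10, beside 0.02 over all tested genes. With the GC trend removed at 48 h, 0 rose and 1 fell in the first list and 6 and 1 in the second. In the third 4 rose and 0 fell, where 10.6% of all genes passed.

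FOXO1, FOXO3 and FOXO4, the factors themselves, had log2 fold changes of -0.07 ± 0.18, 0.07 ± 0.10 and -0.01 ± 0.21 with JIB-04 at 48 h. Of the 23 genes of the FOXO list 0 passed. Its median was 0.23 at 48 h and 0.18 at 24 h, beside 0.01 and 0.02 over all tested genes. At each time 16 of the 23 lay above 0. With the GC trend removed, 7 rose and 1 fell at 48 h, where 10.6% of all genes passed. SGK1, a kinase gene that both FOXO and the glucocorticoid receptor raise, had the smallest p of the list at 48 h, with 1.46 ± 0.24 (edgeR adjusted p = 0.0624).

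For the glucocorticoid receptor list, 2 of 23 genes rose at 48 h, against 0.315% of all genes. The median was 0.21, beside 0.01 over all tested genes. With the GC trend removed, 10 rose and 0 fell, where 10.6% of all genes passed. RGS2, a brake on G protein signalling, had 7.18 and 9.86 CPM in JIB-04 at 48 h, against 2.06 and 2.27 CPM in DMSO, a log2 fold change of 1.98 ± 0.28 (edgeR adjusted p = 0.0391). CD163, the haemoglobin scavenger receptor, had 15.7 and 13.8 CPM in JIB-04 at 48 h, against 7.25 and 6.67 CPM in DMSO (1.08 ± 0.15, edgeR adjusted p = 0.0372). The receptor gene NR3C1 had 0.18 ± 0.16. The classical targets PER1, KLF9 and DUSP1 had 0.83 ± 0.25, -0.01 ± 0.14 and 0.31 ± 0.22 (edgeR adjusted p = 0.331, 0.991 and 0.682). TSC22D3 and FKBP5, on the same receptor, had -1.0 and -0.27, so genes credited to this receptor stood on both sides of 0.

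The ATF4 and CHOP branch was split in the same way. PPP1R15A, which brings phosphatase to eIF2α, had 112 and 94.3 CPM in JIB-04 at 48 h, against 24.2 and 23.7 CPM in DMSO, and rose by 2.11 ± 0.16 (edgeR adjusted p = 0.00302). DDIT3, the gene of CHOP, had 63.7 and 60.4 CPM in JIB-04 at 48 h, against 21.5 and 22.6 CPM in DMSO, and rose by 1.49 ± 0.13 (edgeR adjusted p = 0.00373). ASNS, asparagine synthetase, had -0.84 ± 0.14 (edgeR adjusted p = 0.0550), VLDLR, a lipoprotein receptor, -0.77 ± 0.14 and CHAC1, a glutathione-degrading enzyme, -1.16 ± 0.31. NUPR1, at 1.03 and 0.948 CPM in JIB-04 at 48 h against 2.57 and 2.22 CPM in DMSO, had -1.27 ± 0.29. None of these passed on the counts as deposited. With the GC trend removed, 2 genes of the list rose and 7 fell at 48 h, where 10.6% of all genes passed. ATF4 had -0.23 ± 0.10 at 48 h and -0.41 ± 0.10 at 24 h. The list median was -0.20 at 48 h, beside 0.01 over all tested genes, with 7 list genes above and 9 below 0. TRIB3, SESN2 and DDIT4, which the same branch raises, had -0.55, -0.40 and -0.71 and so had the sign of ASNS, VLDLR and CHAC1 and not that of DDIT3 and PPP1R15A. RGS2, CD163, DDIT3 and PPP1R15A were higher with JIB-04 at 48 h in each of the 16 alternatives, which refit the same libraries. The calls were less stable than the signs. With a replicate block 2 list genes passed at 48 h, where 8 of 15248 genes passed, so not all of these calls held. Fits that leave 1 library in a group cannot judge a call, so calls in them are not given.

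Paralogs and partners gave 0 of 18 with JIB-04 at 48 h, with a median of 0.05. With the GC trend removed, 1 rose and 0 fell, where 10.6% of all genes passed. TRIB1 and TRIB2, the other tribbles genes, had 0.30 ± 0.13 and 0.45 ± 0.17, opposite in sign to TRIB3. TSC22D1 and TSC22D4 had -0.03 ± 0.28 and 0.50 ± 0.32, and CREB3, the target of CREBRF, had 0.45 ± 0.18 (edgeR adjusted p = 0.479). DDIT4L, the paralog of DDIT4, was not analysed here.

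In DMSO at 48 h against 24 h, 3 of the 145 list genes passed in edgeR, against 0.426% of all tested genes. TXNIP, an arrestin that blocks glucose uptake, rose by 0.79 ± 0.12 (adjusted p = 0.0429), with 462 and 438 CPM at 48 h against 284 and 237 CPM at 24 h. ANXA1, annexin A1, fell to 12.2 and 11.2 CPM at 48 h, against 31.6 and 28.8 CPM at 24 h (-1.37 ± 0.14, edgeR adjusted p = 0.0108). CD163 fell to 7.25 and 6.67 CPM at 48 h, against 17.9 and 16.1 CPM at 24 h (-1.29 ± 0.15, edgeR adjusted p = 0.0188). CD163 and TSC22D3 therefore both had their outlying level in DMSO at 48 h, low for CD163 and high for TSC22D3, and this group is the control of the 48 h comparison. The ATF4 and CHOP list had a median of 0.31 in this contrast, with 13 of 16 genes above 0 and 0 passing, beside 0.01 over all tested genes. TXNIP, ANXA1 and CD163 kept their signs in this contrast in each of the 16 alternatives, which refit the same libraries. With a replicate block 0 list genes passed in this contrast, where 2 of 15248 genes passed.

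**Figure D5:**
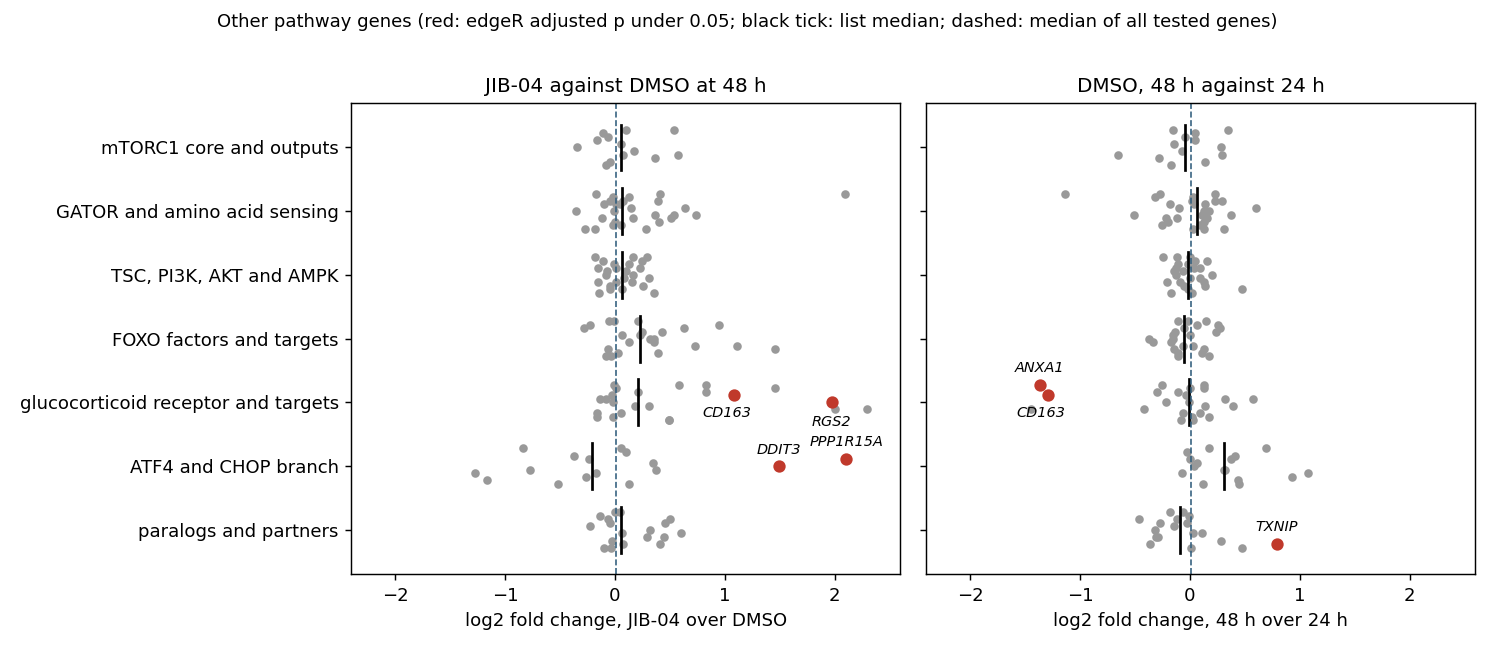
Log2 fold changes of the tested genes of the 7 lists for JIB-04 over DMSO at 48 h (left) and for 48 h over 24 h in DMSO (right); each point is a gene, red points passed edgeR at an adjusted p under 0.05, black ticks are list medians and the dashed line is the median of all tested genes. The passing genes are DDIT3, PPP1R15A, RGS2 and CD163 on the left, and ANXA1, CD163 and TXNIP on the right.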

How the data were processed

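RNA-seq of 8 libraries of AML-OCI3 cells was used. Per the labels' protocols, TRIzol RNA went into a stranded Illumina poly(A) mRNA kit. The submitters' processing notes list cutadapt, STAR 2.6.1, RSEM and build hg38, with strand use not given in the sources used here. Per time point, the authors deposited 1 table, holding expected counts per gene and library as whole numbers, TPM computed per library, and their own JIB-04 over DMSO log2 fold changes with p-values and adjusted p-values, per the file headers.

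The expected counts of the 24077 shared genes were rounded and filtered (filterByExpr, minimum count 10, minimum total 15), leaving 15248 genes. edgeR 4.0.16 in R 4.3.3 fitted 1 mean per group with TMM scaling over all 8 libraries and applied its two-sided quasi-likelihood F test, with Benjamini-Hochberg adjustment over all tested genes and a threshold of 0.05. CPM are TMM-scaled. Fold changes are JIB-04 over DMSO, or 48 h over 24 h. GENCODE 29 gave gene positions and GC content. The GC trend was removed by a smooth fit per library. Implied lengths were tested with limma 3.58.1, and DESeq2 1.42.0 was an alternative. edgeR, DESeq2 and limma-voom were also run on counts simulated without a GC trend, for JIB-04 against DMSO at 48 h alone. The other fits were not run on simulated counts, and nothing is read from that run.

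The genes, the 7 pathway lists and the rule for naming list genes (all that passed, up to 3 per list with the smallest p among the rest, and a set of fixed names) were chosen with earlier results of these data known. The p-values measure only the spread between these libraries, which may be technical. A comparison of sestrin proteins was not run.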

Additional observations from a re-analysis of the deposited data

How the results depend on the processing

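Of the 720 single-gene values recomputed under alternatives, 28 had the other sign, all of values that had not passed: 22 in the JIB-04 effect at 48 h minus at 24 h, 4 in DMSO over time and 2 in JIB-04 over time. In DMSO over time, SESN2, -0.08 as reported, was 0.015 with the GC trend removed, 0.014 with the replicate block as well, and -0.27 to 0.15 leaving out a library. SESN3, -0.04 as reported, was -0.18 to 0.11 leaving out a library. In the same contrast 13 values newly passed. Members passing with JIB-04 at 24 h, 0 as reported, were 4 in DESeq2 and 3 without the filter on low counts. With the GC trend removed there were 7. Of all genes, 91 of 14065, 36 of 24077 and 2054 of 15248 passed in those fits. At 48 h, 3 as reported, members were 5 in the fit of only the 4 libraries compared and 8 with the GC trend removed. Over all genes 496 of 14620 and 1617 of 15248 passed there, against 59 of 15248 as reported. In DMSO over time, 0 as reported, members were 1 in DESeq2, 1 without the filter and 5 with the GC trend removed. The counts over all genes were 227 of 13474, 113 of 24077 and 2512 of 15248, against 65 of 15248 as reported. In JIB-04 over time, 0 as reported, 1 member passed in DESeq2, 1 without the filter and 1 in the 4-library fit. With the GC trend removed 4 passed. Over all genes 101 of 15248, 52 of 24077, 39 of 14602 and 1296 of 15248 passed, against 31 of 15248 as reported.

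Pathway list genes passing at 24 h, 0 as reported, were 6 in DESeq2, 5 without the filter and 35 with the GC trend removed. At 48 h, 4 as reported, they were 9, 8 and 39 under the same alternatives and 22 in the 4-library fit. Over all genes at 48 h, DESeq2 passed 148 of 13769 and the fit without the filter 87 of 24077. Other counts over all genes in these fits are those given above beside the members. For the JIB-04 effect at 48 h minus at 24 h, 0 as reported, there were 6 with the GC trend removed. That fit passed 308 of 15248 genes. In DMSO over time, 3 as reported, there were 7 in DESeq2, 6 without the filter and 26 with the GC trend removed. The 4-library fit passed 0 list genes, and 0 of 14719 over all genes. In JIB-04 over time, 0 as reported, there were 5 in DESeq2, 3 without the filter and 24 with the GC trend removed. In limma-voom 1 passed, against 32 of 15248 over all genes. Over all genes the GC trend removed gave 2054 calls at 24 h and 1617 at 48 h, against 0 and 59 as reported. Where a library was left out, the lone library was assumed to vary like the other groups.

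Replicate numbers shared no batch in the labels. Deviations of same-numbered libraries correlated at -0.810 between JIB-04 and DMSO at 24 h and 0.921 between JIB-04 at 24 h and 48 h, so the numbers were not taken as pairs. A replicate block gave 0 members and 2 list genes at 48 h, where 8 of 15248 genes passed. In DMSO over time it gave 0 list genes, and 2 of 15248 genes passed. With the block and the GC trend removed there were 7 members and 34 list genes at 24 h, 8 and 38 at 48 h, 6 and 28 in DMSO over time, 4 and 23 in JIB-04 over time, and 5 list genes in the difference of the effects. Over all 15248 genes the block with the GC trend removed passed 1885, 1447, 2379, 1190 and 238, in the same order of comparisons. Crossing the numbers in the 24 h libraries, chosen after seeing the data, gave 3 members and 7 list genes. That crossed fit passed 116 of 14721 genes. The cause of these changes was not tested. The depth gave each of the 9 genes 3089 or more counts over the 8 libraries. What limits the precision was not tested.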
